A study of Mus musculus with 12 samples.

Results

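Genes of myelin and of the oligodendrocyte lineage were followed in hippocampal RNA of 12 mice hybridised to Affymetrix Mouse Gene 1.0 ST arrays. The list held 31 genes, of which 30 were represented by a probe set assigned to 1 gene only, out of 19938 genes with such a probe set on the array. Evi2a was read only by a probe set shared with other genes and is not reported. The list was chosen by a readout of these same arrays: Opalin had been seen to be low in Srf mutants given pilocarpine. Values of that comparison are therefore given as a description, without p-values.

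There were 4 groups of 3 animals, and all mice were adults of both sexes, 7-10 weeks old, on a C57/Bl6 background, positive for the CaMKCreERT2 allele and injected with tamoxifen. Heterozygous mice (Srf+/-;CaMKCreERT2) carried 1 intact Srf allele and served as the control genotype, and Srf mutants (Srf-/-;CaMKCreERT2) had both alleles recombined. Mice of each genotype received Ringer solution (heterozygous controls and mutant controls) or, after methyl scopolamine, pilocarpine at 335 or 350 mg/kg, a muscarinic agonist that causes seizures. Heterozygous mice given pilocarpine were taken after 40 min of status epilepticus (SE), continuous seizure activity without recovery, whereas the mutants given pilocarpine had seizures but no SE. Among the mice given pilocarpine, genotype and SE thus differed together. The paper also describes arrays of Srf mutants that reached SE, and these are not among the arrays used here. The time at which the mutants given pilocarpine were taken is not given in the sources used here. The GEO labels name the genotypes and whether seizures occurred, and the presence or absence of SE follows the study's description. In the sample titles the heterozygous mice are called SRF-WT and the mutants SRF-KO. Cre in these mice is driven by a promoter of forebrain glutamatergic neurons, so that oligodendrocytes are not the cells targeted for Srf deletion. The arrays measured whole hippocampus, and fewer oligodendrocytes cannot be told apart from less RNA per oligodendrocyte.

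Oligodendrocytes wrap axons of the central nervous system in myelin, a stack of membrane rich in cholesterol and galactolipids and compacted by a few abundant proteins. They arise from progenitors marked by the growth factor receptor Pdgfra and the proteoglycan Cspg4 (NG2), and their maturation is driven by the transcription factors Olig1, Olig2, Sox10, Nkx6-2 and Myrf. In the hippocampus, myelinated fibres are concentrated in the alveus and fimbria and are sparse in the cell layers.

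To show the sequence context of the genes on which the comparisons turn, the 250 bases before the annotated transcript start are printed for a sheath gene low in mutants given pilocarpine (Opalin), a sheath gene with repeated SOX-type matches (Mobp), a metabolic enzyme of oligodendrocytes (Aspa) and the progenitor gene that rose in SE (Cspg4). The windows are RefSeq sequences of the mouse build GRCm38.p6, printed 5′ to 3′ on the strand of the gene, at chr19:41077114-41077363 (minus strand) for Opalin, chr9:120149492-120149741 (plus) for Mobp, chr11:73324638-73324887 (minus) for Aspa and chr9:56864854-56865103 (plus) for Cspg4. Capitals mark matches on either strand to ACAAAG, a core recognised by SOX factors, to the E-box CAGCTG and to the CArG box, the element bound by SRF.
Opalin: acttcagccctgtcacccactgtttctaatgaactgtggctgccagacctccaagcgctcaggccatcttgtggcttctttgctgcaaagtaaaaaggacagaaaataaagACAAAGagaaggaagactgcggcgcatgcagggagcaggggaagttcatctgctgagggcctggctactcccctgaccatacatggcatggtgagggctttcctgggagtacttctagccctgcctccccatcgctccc
Mobp: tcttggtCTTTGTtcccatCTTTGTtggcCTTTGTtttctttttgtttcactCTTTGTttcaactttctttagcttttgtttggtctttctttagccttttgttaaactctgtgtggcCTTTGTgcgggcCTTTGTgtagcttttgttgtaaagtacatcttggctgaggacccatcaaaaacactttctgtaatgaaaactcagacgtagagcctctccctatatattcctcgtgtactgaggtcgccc
Aspa: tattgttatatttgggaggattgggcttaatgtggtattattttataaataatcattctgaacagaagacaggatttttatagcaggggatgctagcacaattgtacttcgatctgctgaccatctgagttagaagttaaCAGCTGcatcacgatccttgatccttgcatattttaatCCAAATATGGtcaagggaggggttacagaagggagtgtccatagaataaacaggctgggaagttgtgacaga
Cspg4: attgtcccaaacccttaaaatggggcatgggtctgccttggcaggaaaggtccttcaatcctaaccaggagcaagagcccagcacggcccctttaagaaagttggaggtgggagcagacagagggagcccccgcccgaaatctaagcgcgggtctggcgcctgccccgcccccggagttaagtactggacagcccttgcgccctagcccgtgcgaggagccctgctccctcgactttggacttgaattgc
Opalin held 1 ACAAAG match and Mobp held 6, whereas Aspa held 1 E-box and 1 CArG box and Cspg4 held none of the 3 motifs. In Mobp all 6 matches lie on the opposite strand and read CTTTGT. RefSeq windows were matched for 22 of the 31 listed genes, with 29 windows in all because some genes have several starts. ACAAAG was present in 10 of the 29 windows, of 8 genes (Apod, Cnp, Gjb1, Mag, Mobp, Opalin, Plekhb1 and Tspan2), against 16.5% of 32851 mouse windows of the same length. The E-box was found in 2 of the 29 windows (Aspa and Hapln2), against 13% of all windows, and the CArG box in 1 of 29 (Aspa), against 1.47%. These matches describe letters in a window and say nothing of binding.

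The genotype labels were checked on Srf itself, whose log2 level was 9.57 ± 0.04 (SD, n = 3) in heterozygous controls and 8.90 ± 0.09 in mutant controls. Srf averaged 10.21 in heterozygous mice with SE and 8.88 in mutants given pilocarpine, and Fos, an activity-induced gene, stood at 6.68, 12.02, 7.04 and 9.75 in heterozygous controls, heterozygous SE, mutant controls and mutants given pilocarpine. The array medians lay between 6.784 and 6.863, and pairwise correlations over all probe sets between 0.993 and 0.998. Xist was above a log2 level of 9 on 1, 0, 2 and 1 of 3 arrays in the same group order, so the sexes were not balanced over the groups. Neuronal markers had a mean log2 level over 11 genes between 12.06 and 12.14 on every array, and the region within the brain was not checked further.

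Differences between animals of 1 group were wide for these genes. The median within-group standard deviation of the 30 genes was 0.142 on the log2 scale, against 0.0759 for all probe sets assigned to genes, and 29 of the 30 genes exceeded that latter median. Olig2 was the exception, with a spread smaller than that of about 90% of probe sets. In mutants given pilocarpine, animal 1 was the lowest of its 3 in 28 of 30 genes and animal 3 the highest in 24. Animal 1 of the heterozygous controls was the highest of its 3 in 27 of 30 genes, and animal 1 of the heterozygous SE group in 25. Measured from each gene's mean over the 12 arrays, the median over the 30 genes was -0.31 in mutant pilocarpine animal 1, -0.07 in animal 2 and 0.06 in animal 3, and it was 0.21 in heterozygous control animal 1. The medians over the 30 genes are therefore also given below with single animals left out.

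**Figure D1:**
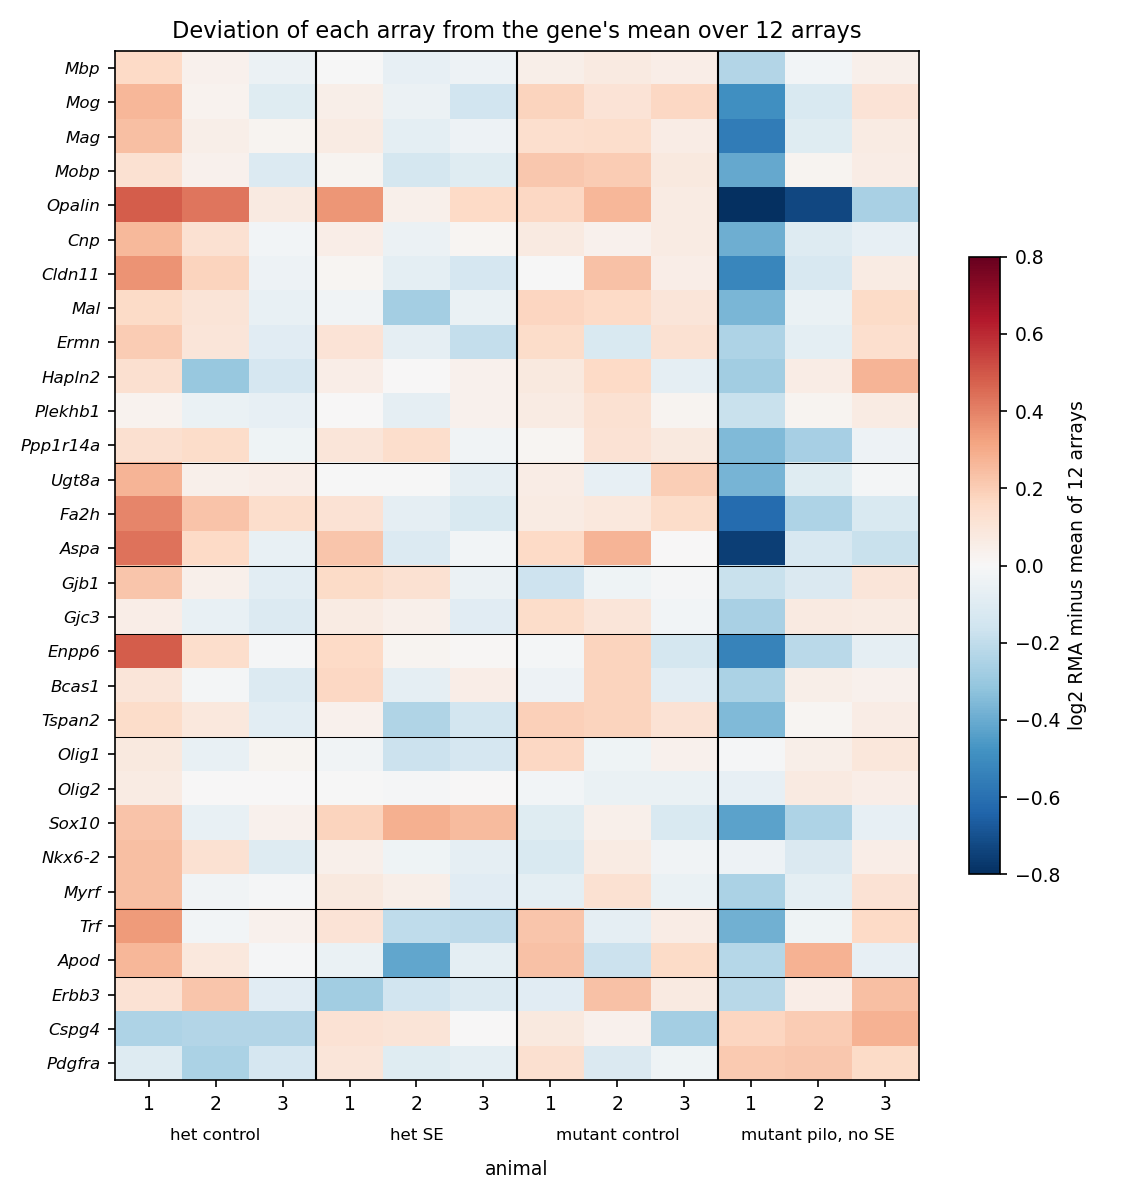
Heat map of 30 myelin and oligodendrocyte genes (rows, ordered by role, thin lines between roles) on 12 arrays (columns, 3 animals in each of 4 groups), coloured by log2 level minus the gene's mean over the 12 arrays and clipped at 0.8 in either direction. Mutant pilocarpine animal 1 lies below the mean in 28 of 30 genes, whereas Cspg4 and Pdgfra are above it on all 3 arrays of that group.

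Other cell type markers were examined on the same arrays. In mutant pilocarpine animal 1, the median deviation from the 12-array mean was 0.03 for 11 neuronal genes, 0.03 for 10 astrocyte genes, 0.04 for 9 microglial genes and 0.01 for 9 choroid plexus genes. It was -0.10 for 10 endothelial and pericyte genes and -0.03 for 8 genes of meninges and fibroblasts. A further 38 genes of the oligodendrocyte lineage, not on the list, had a median deviation of -0.17 in this animal, -0.06 in animal 2 and 0.01 in animal 3. In heterozygous control animal 1 these 38 genes stood at 0.17, the neuronal genes at -0.01 and the meningeal genes at 0.20. The low level in mutant pilocarpine animal 1 was seen in 2 separate sets of oligodendrocyte genes and not in the neuronal, astrocyte or microglial sets. Roles within the list did not share it equally. In this animal the median was -0.38 for 12 sheath genes and -0.61 for 3 lipid and metabolite enzymes. For 5 lineage factors it was -0.06, and for 3 receptor and progenitor genes it was 0.17. The endothelial and pericyte set was also low in this animal, with 9 of its 10 genes below their 12-array means. The part of tissue composition in the group differences was not tested.

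**Figure D2:**
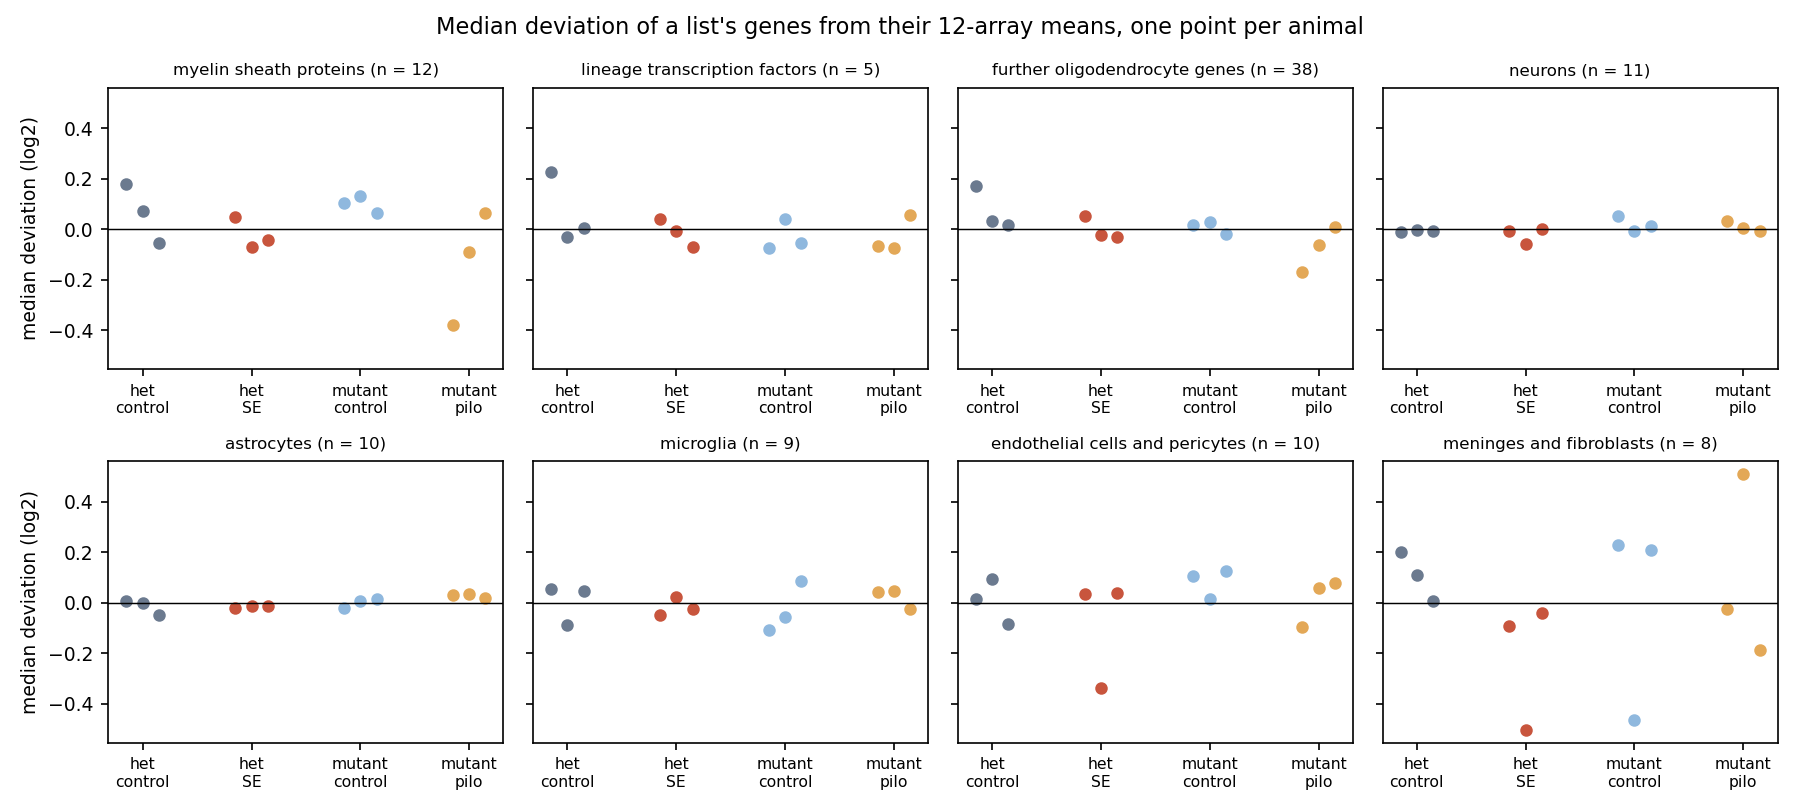
Median deviation (log2) of each list's genes from their 12-array means, 1 point per animal in the order 1, 2, 3 within each of 4 groups, for 8 lists on a common axis. In mutants given pilocarpine the sheath genes run from -0.38 to 0.06 while the neuronal genes stay between -0.01 and 0.03, and the meningeal genes range most widely.

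The first comparison asked how the lineage stood after 40 min of SE in heterozygous mice, and it does not use the arrays of mutants given pilocarpine except through the variance shared by all groups. Cspg4, the NG2 proteoglycan of progenitors, was the single gene that rose, and none fell by the test. Its log2 levels were 8.06, 8.08 and 8.08 in heterozygous controls and 8.42, 8.41 and 8.31 with SE. The groups did not overlap, and the SE mean was 124% of the control mean (95% interval 111% to 139%; log2 difference 0.31 ± 0.08, the standard error as after every difference below, limma adjusted p = 0.018). Among all tested probe sets 5.08% were called higher and 6.93% lower in this comparison, so that 1 of 30 is no more than the background. The call was lost, with limma adjusted p between 0.052 and 0.062, when any of the 3 control animals or SE animal 1 or 2 was left out.

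Pdgfra, the receptor for platelet-derived growth factor on the same progenitors, read 9.53, 9.38 and 9.50 in heterozygous controls and 9.73, 9.54 and 9.56 with SE. The groups were separate by a narrow margin, and the difference of 0.14 did not pass (95% interval -0.02 to 0.29, limma adjusted p = 0.27). Erbb3, a receptor for neuregulins on glia, was lower in all 3 SE animals at 7.831, 7.952 and 7.996, against 8.221, 8.332 and 8.017 in controls. This difference of -0.26 ± 0.12 did not pass either (limma adjusted p = 0.19).

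The 12 genes of sheath proteins had values below 0 in 10 cases, and no one of them passed. Opalin, a transmembrane glycoprotein of the paranodal loops, read 9.13, 9.08 and 8.72 in heterozygous controls and 9.01, 8.69 and 8.81 with SE. The groups overlapped, and the log2 difference was -0.14 ± 0.17 (95% interval -0.50 to 0.22, limma adjusted p = 0.68). Mbp, which encodes the basic protein that compacts the sheath, differed by -0.09 (95% interval -0.24 to 0.06), and Mog, a glycoprotein of the outermost lamella, by -0.12 (-0.39 to 0.16). Values for Mag, the adhesion molecule of the innermost lamella, Mobp, a basic protein of compact myelin, and Cnp, an enzyme of its cytoplasmic channels, were -0.12, -0.09 and -0.11. Cldn11, the tight junction protein between lamellae, and Mal, a raft proteolipid, gave -0.23 and -0.19, and the cytoskeletal protein gene Ermn gave -0.12. Above 0 were Hapln2, a link protein of the matrix at nodes, at 0.13 and Plekhb1, a membrane-bound protein gene, at 0.02. Ppp1r14a, a phosphatase inhibitor, was at -0.01.

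Enzymes of myelin lipid and acetate metabolism were all below 0. Fa2h, which hydroxylates the fatty acids of myelin galactolipids, read 10.12, 9.96 and 9.87 in heterozygous controls and 9.85, 9.66 and 9.61 with SE. Its 2 groups did not overlap, yet the difference of -0.28 ± 0.11 did not pass (82.5% of control, 95% interval 69.9% to 97.2%, limma adjusted p = 0.135). It passed once mutant pilocarpine animal 1, which contributes only to the shared variance, was left out (limma adjusted p = 0.036). Ugt8a, the galactosyltransferase that makes galactocerebroside, differed by -0.15 and Aspa, which releases acetate from N-acetylaspartate, also by -0.15, neither passing.

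Among the remaining roles, the carrier genes Apod and Trf were at -0.29 and -0.22, the limma adjusted p being 0.23 and 0.40. Apod, an apolipoprotein, was separate between the groups with 12.15, 11.97 and 11.88 against 11.84, 11.48 and 11.81. Of the lineage factors, Sox10 had a value of 0.17 and Olig1, Olig2, Nkx6-2 and Myrf of -0.13, -0.03, -0.11 and -0.06, with no call. The gap junction genes Gjb1 and Gjc3 were at 0.02 and 0.04. Genes of newly formed oligodendrocytes gave -0.14 for Enpp6, a choline phosphodiesterase, 0.06 for Bcas1 and -0.17 for the tetraspanin Tspan2.

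Over the 30 genes, 22 had a value below 0 in heterozygous SE, against 61.2% of all probe sets, and the median was -0.12, against -0.03 for all. Unadjusted limma p fell under 0.05 for 3 genes (Cspg4, Fa2h and Erbb3), a smaller share than the 23.8% of all probe sets. The groups did not overlap in 2 genes that were higher and 4 that were lower (Ugt8a, Fa2h, Apod and Erbb3), where the shares over all probe sets were 10.6% and 19.8%. Without heterozygous control animal 1 the median was -0.03, with 19 genes below 0. Without heterozygous control animal 3 it was -0.17, and without SE animal 1 it was -0.15, with 23 genes below 0 in either case. The size of this shift thus varied with the animal left out.

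**Figure D3:**
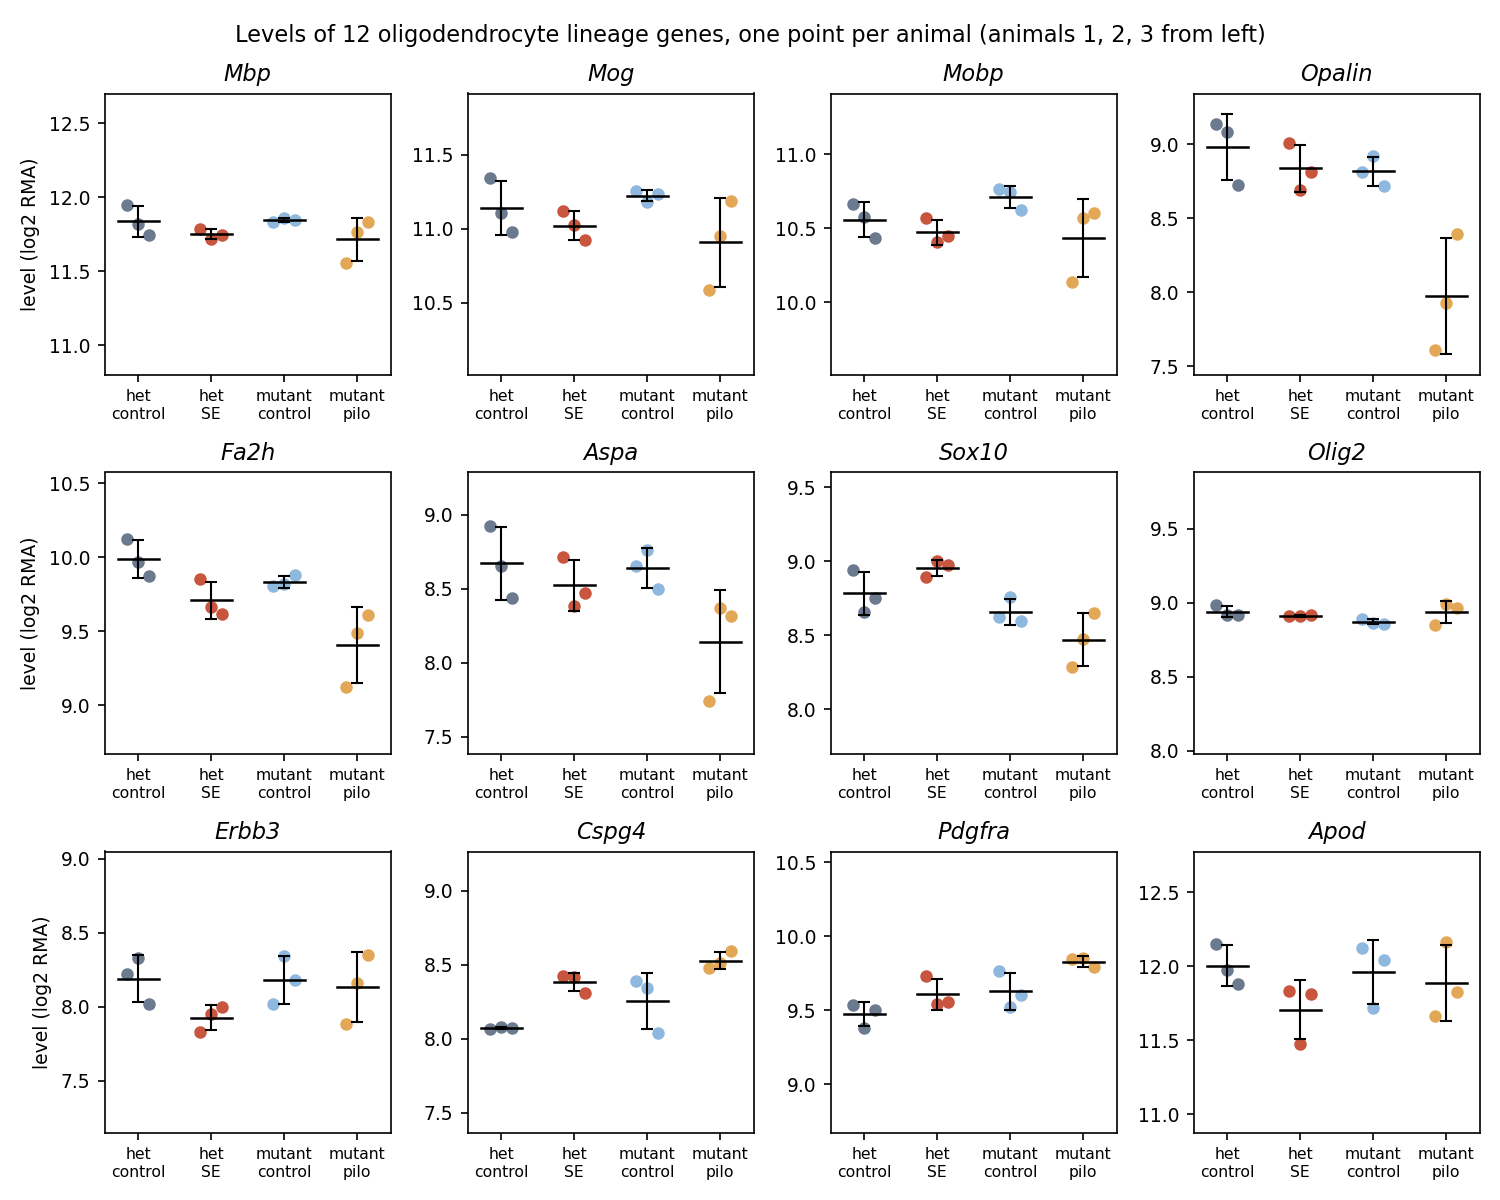
Log2 RMA level of 12 genes by group, 1 point per animal (animals 1, 2, 3 from left), with the mean (long bar) and SD (whiskers, n = 3). Every panel spans the same log2 range, so that distances can be set side by side, and levels of different genes cannot. Cspg4 with SE (8.31 to 8.42) lies above heterozygous controls (8.06 to 8.08), and Opalin in mutants given pilocarpine (7.61 to 8.39) lies below every other array.

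The second comparison asked whether loss of Srf in forebrain neurons was accompanied by other levels of these genes without seizures. It shares the heterozygous controls with the comparison above and the mutant controls with the one that chose the list. No gene passed, with 0.0384% of all probe sets called higher and 0.0812% lower by limma, and 2 of the 30 genes had an unadjusted p under 0.05 (Cspg4 and Pdgfra), beside 8.73% of all probe sets. The values furthest from 0 were those of Enpp6 at -0.20 (95% interval -0.49 to 0.10) and Cspg4 at 0.18 (0.02 to 0.35), the limma adjusted p being 0.73 and 0.54. Cspg4 read 8.39, 8.34 and 8.04 in mutant controls, of which the last lay just below the heterozygous controls. Next came Opalin at -0.16 (-0.52 to 0.20) and Hapln2 at 0.16 (-0.12 to 0.44), and Pdgfra stood at 0.16 (0.00 to 0.31). Mbp differed by 0.01, with an interval of -0.14 to 0.16. The groups were separate in 1 gene, Olig2, with 8.89, 8.86 and 8.86 in mutant controls against 8.98, 8.92 and 8.92, a difference of -0.07. Over all probe sets 6.1% were separate with higher and 7.46% with lower values. Values were below 0 in 17 of the 30 genes with a median of -0.01. They were below 0 in 7 with a median of 0.06 without heterozygous control animal 1, and in 20 with a median of -0.08 without animal 3.

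Mutants given pilocarpine were then set beside mutant controls. This comparison includes the readout that chose the list, and no p-value is attached to it. Opalin read 8.82, 8.92 and 8.72 in mutant controls and 7.61, 7.93 and 8.39 after pilocarpine. All 3 animals given pilocarpine lay below every mutant control, and also below all heterozygous animals. The mean was 55.8% of that in mutant controls (95% interval 43.5% to 71.6%, log2 difference -0.84 ± 0.17), and without pilocarpine animal 1 the difference was -0.66. The interval takes no account of Opalin having chosen the list, and it is not to be read as a test.

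The other sheath genes had smaller values, all below 0. Mobp read 10.76, 10.75 and 10.62 in mutant controls and 10.13, 10.57 and 10.60 after pilocarpine, so that the groups were narrowly separate and most of the -0.28 ± 0.11 came from 1 animal (-0.13 without it). Cnp differed by -0.24 ± 0.08 and Ppp1r14a by -0.29 ± 0.08, the latter with 8.901, 9.002 and 8.963 against 8.535, 8.618 and 8.845. Mbp, with 11.83, 11.86 and 11.84 against 11.56, 11.77 and 11.83, differed by -0.13 ± 0.07. In these 4 genes the groups did not overlap. They did overlap for Mog, Mag, Cldn11, Mal, Ermn, Hapln2 and Plekhb1, whose differences ranged from -0.32 (Mog) to -0.04 (Hapln2).

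Aspa and Fa2h followed Opalin in size. Aspa read 8.66, 8.76 and 8.50 in mutant controls and 7.74, 8.37 and 8.32 after pilocarpine, a difference of -0.50 ± 0.16 that became -0.30 without animal 1. Fa2h read 9.80, 9.82 and 9.88 against 9.12, 9.49 and 9.61, with -0.43 ± 0.11 and -0.28 without animal 1. Both were separate between the groups, as was Tspan2 at -0.26 ± 0.10. Ugt8a and Enpp6 had differences of -0.23 and -0.28 with overlapping groups.

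Cspg4 and Pdgfra, the progenitor genes of the list, ran the other way. Cspg4 read 8.48, 8.51 and 8.59 after pilocarpine, above the 8.39, 8.34 and 8.04 of mutant controls, a difference of 0.27 ± 0.08 (121% of the control mean, 95% interval 108% to 135%). This difference was 0.16 without mutant control animal 3, the lowest of the controls, and 0.34 without mutant control animal 1. Pdgfra read 9.85, 9.85 and 9.79 against 9.77, 9.52 and 9.60, a difference of 0.20 ± 0.07. For both genes the 3 animals given pilocarpine were also above every heterozygous animal, with SE or without. Pilocarpine animal 1, low in the sheath genes, was above every mutant control in both, though it was the lowest of its group in Cspg4. The lineage factors shared neither direction as a set. Olig1, Olig2, Nkx6-2 and Myrf were at -0.01, 0.06, -0.01 and -0.07 and Sox10 at -0.19 ± 0.09, while Gjb1, Gjc3, Bcas1, Trf, Apod and Erbb3 lay between -0.16 and 0.00.

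Counted over the list, 26 of the 30 values were below 0 (51.8% of all probe sets), with a median of -0.14 against 0.00 for all. At the limma threshold used above, 1 gene counted as lower, Opalin, whose low value chose the list, and none as higher, beside 0.965% and 0.871% of all probe sets. The groups were separate in 8 genes with lower and 2 with higher values, beside 11.4% and 7.04%. Since this contrast chose the list, nothing is read from these counts. Without pilocarpine animal 1, 20 of the 30 values were below 0 and the median was -0.04. Without animal 3, 27 values were below 0 and the median was -0.25.

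**Figure D4:**
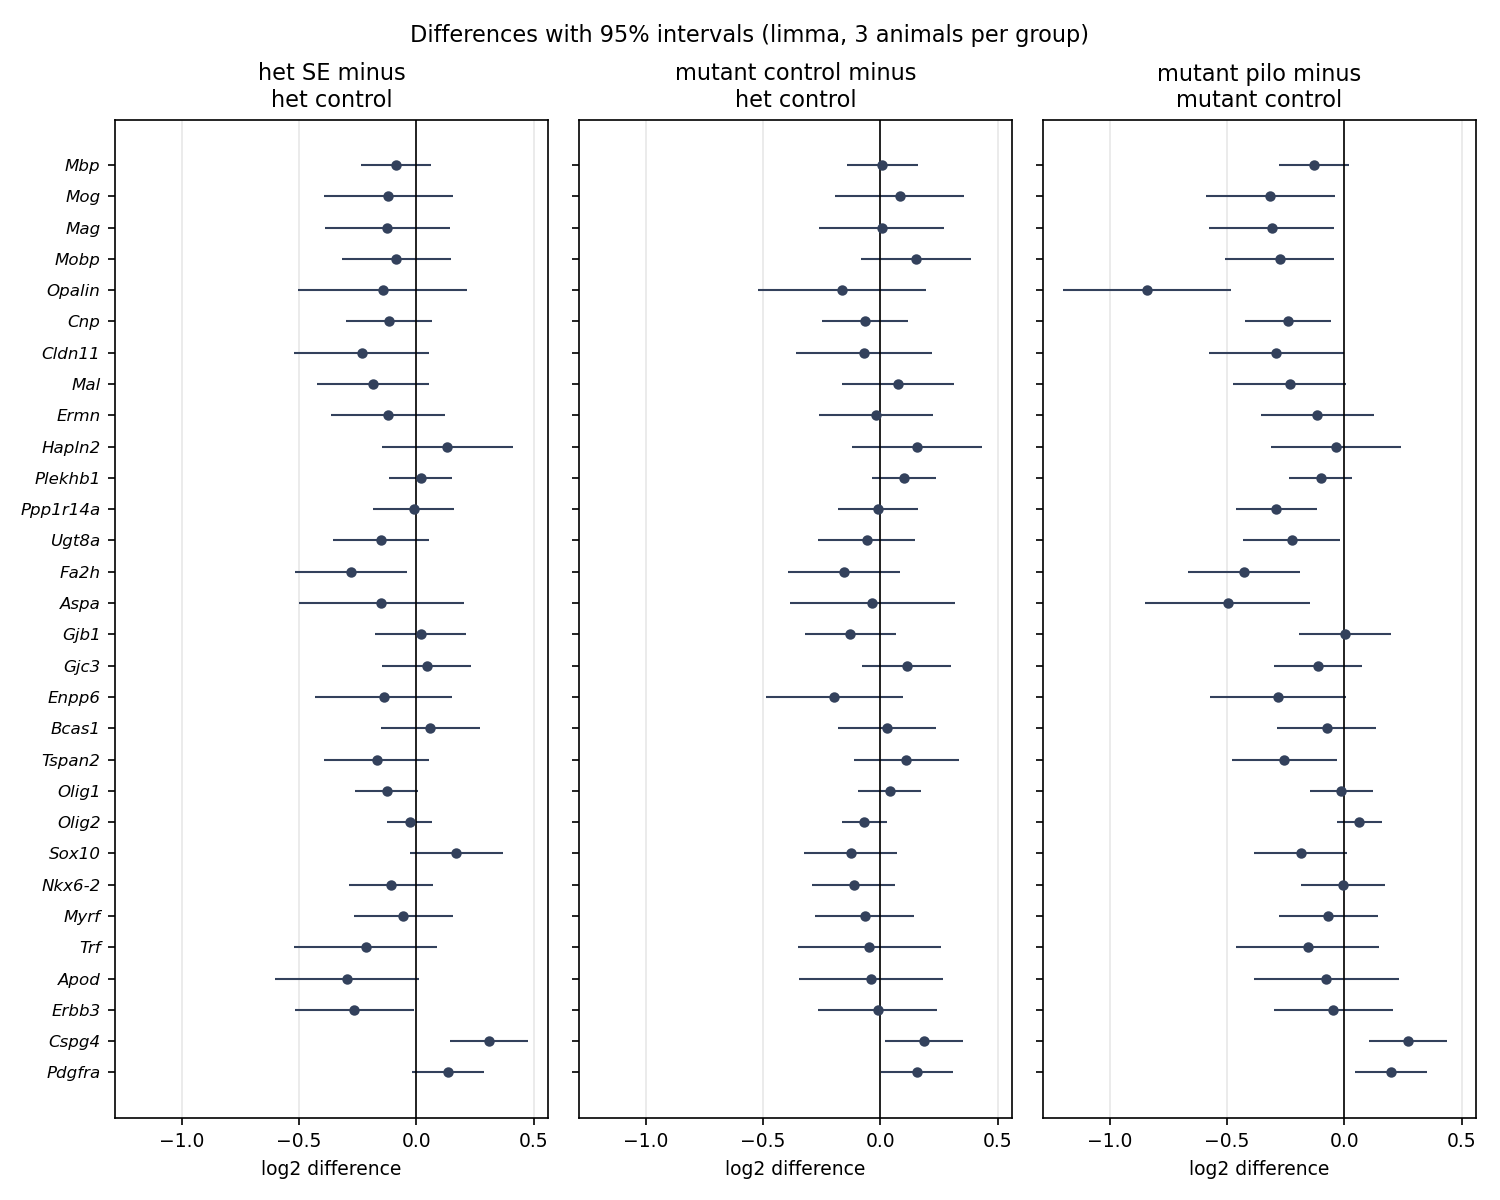
Log2 difference of each of 30 genes with its 95% interval from limma (x axis, 3 animals per group) in 3 comparisons on a common axis, ordered by role. Opalin at -0.84 in mutants given pilocarpine is the point furthest from 0, and Cspg4 is at 0.31, 0.18 and 0.27 from left to right. The interval of Opalin in the right panel takes no account of this value having chosen the list.

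The difference between the responses, mutants minus heterozygous mice, contains the contrast that chose the list and is likewise given as values. No gene of the 30 passed, beside 1.47% of all probe sets called higher and 2.12% lower. The largest values were -0.70 ± 0.23 for Opalin, -0.36 ± 0.13 for Sox10, -0.35 ± 0.23 for Aspa and -0.28 ± 0.11 for Ppp1r14a. Sox10 read 8.897, 9.003 and 8.972 in SE and 8.289, 8.474 and 8.654 in mutants given pilocarpine, and these 2 groups had their means on opposite sides of their own controls. Cspg4 at -0.04 (95% interval -0.27 to 0.20) and Pdgfra at 0.06 (-0.15 to 0.28) had intervals spanning 0. The median of the 30 genes was -0.08, against 0.02 for all probe sets, and it was 0.01 without mutant pilocarpine animal 1 and -0.17 without animal 3.

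Further genes of the pathway were read from additional lists. Of 38 additional oligodendrocyte genes, 3 fell in heterozygous SE and none rose, a share near the 6.93% of all probe sets called lower. Gpr17, a receptor of progenitors committed to differentiate, read 9.15, 8.91 and 9.01 in controls and 8.55, 8.84 and 8.61 with SE. Its level was 77.8% of control (log2 difference -0.36 ± 0.10, limma adjusted p = 0.038). Carns1, the carnosine synthase of oligodendrocytes, fell by 0.21 and Car2, a carbonic anhydrase, fell by 0.19 on the log2 scale (limma adjusted p = 0.013 and 0.045). The median of the 38 was -0.11 with SE, against -0.03 for all probe sets. It was -0.08 in mutants given pilocarpine, where none passed, against -0.004 for all. In mutant controls set beside heterozygous controls it was -0.09, against -0.01 for all. There 25 of the 38 values were below 0, beside 54.0% of all probe sets. In mutants given pilocarpine the level of Gpr17 differed by 0.03 ± 0.10.

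Cholesterol synthesis, on which myelin membrane depends but which neurons and astrocytes share, was represented by 17 genes. With SE 8 of the 17 rose in heterozygous mice and none fell, with a median of 0.18, where 5.08% of all probe sets were called higher. Cyp51, the lanosterol demethylase, rose to 153% of control (log2 difference 0.61 ± 0.05, limma adjusted p = 8.4e-06), and Pmvk, phosphomevalonate kinase, to 146% (0.54 ± 0.06, limma adjusted p = 8.8e-05). Idi1, the isopentenyl isomerase, and Insig1, a sterol-sensing regulator, rose by 0.53 and 0.51. In mutants given pilocarpine Cyp51 was at 0.26 ± 0.05 and Pmvk at 0.16 ± 0.06, and the median of the 17 was -0.11. Lss, lanosterol synthase, was at 0.25 in heterozygous SE and -0.30 in mutants given pilocarpine. The difference between the responses had values below 0 in all 17 genes, with a median of -0.23, against 43.3% of all probe sets and a median of 0.02. At the limma threshold 5 of the 17 counted as lower in it, beside 2.12% of all, and 1, Cyp51, as higher in mutants given pilocarpine, beside 0.871%.

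Of 17 genes for signals that act on oligodendrocytes, 4 rose and 2 fell in heterozygous SE, beside 5.08% and 6.93% of all probe sets. Lif, a cytokine, rose by 0.56, Lrp1, a lipoprotein receptor, by 0.48, Fgfr2, a fibroblast growth factor receptor, by 0.40 and Nrg2, a neuregulin, by 0.24. Hes5, a Notch target, read 8.81, 8.90 and 8.74 in controls and 8.23, 8.40 and 8.26 with SE, 69.7% of control (log2 difference -0.52 ± 0.07, limma adjusted p = 0.00023). Dll1, a Notch ligand, fell by 0.31. In mutants given pilocarpine, Fgfr2 was at 0.39 ± 0.06, Hes5 at -0.05 ± 0.07 and Nrg2 at -0.22 ± 0.07. Of 10 genes for the nodes and paranodes of axons, 1 rose with SE, Sptbn4, which encodes a spectrin of the node (0.20), beside the same 5.08%.

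Beside these values, markers of other cells moved in heterozygous SE as follows. None of 11 neuronal, 9 choroid plexus or 8 meningeal genes passed, and the meningeal genes had a median of -0.32 with a within-group standard deviation of 0.333. Of 10 astrocyte genes Sox9 rose by 0.46 and none fell. Of 9 microglial genes Cx3cr1 and P2ry12 fell by 0.19 and 0.23, and of 10 vascular genes Pdgfrb, the pericyte receptor, and Tek fell by 0.48 and 0.45. Among all probe sets 5.08% were called higher and 6.93% lower. The levels of these lists on single arrays overlapped between the groups for neurons (mean log2 level 12.08 to 12.13 in controls, 12.06 to 12.10 with SE) and astrocytes (10.93 to 10.98 against 10.97 to 11.00). Those of the meningeal genes were separate by a narrow margin (8.30 to 8.54 against 7.79 to 8.27). Their part in the values of the oligodendrocyte genes was not tested. Cspg4 and Pdgfra are also expressed by pericytes and by fibroblasts, respectively.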

How the data were processed

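Hippocampal total RNA of 12 mice, 3 per group, was labelled with biotin and hybridised by the authors to 1-colour arrays. The deposited values are log2 expression summaries per probe set, which the authors made by robust multiarray average (RMA) in Affymetrix Expression Console. Of 35556 probe sets, 21789 carried 1 gene in the platform annotation, 1621 several and 12146 none. A gene was represented by its 1-gene probe set, the one with the highest mean over 12 arrays where there were several. Groups followed the sample titles and genotypes, one mouse per array. Group means were fitted over all 12 arrays with limma 3.58.1 (lmFit, eBayes) in R 4.3.3, with Benjamini-Hochberg adjustment over 23410 probe sets with a gene, called at an adjusted p of 0.05. The fit was tested on simulated data. RMA pulls weak signals towards background, so small log2 differences of dim genes are understated, and the number of arrays limits the precision. Motifs were searched with Python 3.11.15. Genes named with full statistics were those called, those of largest change and Opalin throughout. In mutants given pilocarpine they were the 8 of largest change whose arrays did not overlap between groups. The members and lists were chosen with earlier results of these data known. Same-numbered animals did not deviate together (r between -0.312 and 0.145 over 9 pairs of arrays), so numbers were not taken as pairs. Alternatives were other variance priors, probe set filters, centring, a second quantile normalization, array weights, an Xist covariate, a replicate block and leaving out each array. Some genes of the additional lists are not reported here.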

Additional observations from a re-analysis of the deposited data

How the results depend on the processing

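The number of the 30 genes called in mutants given pilocarpine, 1 in the limma fit, was 2 without dim probe sets (29 genes kept among 11705 probe sets), 3 with array weights, and 0 with a fit restricted to the groups compared, with all probe sets tested, with the Xist level as covariate and with the replicate block. For the difference between responses it was 1 with array weights. These counts hold the values that chose the list and describe the fits only. Leaving out 1 array gave 0 to 2 genes in heterozygous SE, 0 to 3 in mutants given pilocarpine and 0 to 1 for the difference between responses. In heterozygous SE, Cspg4 kept its call in 17 of 22 alternatives, with log2 differences of 0.29 to 0.35. The log2 difference of Opalin in mutants given pilocarpine ranged from -1.05 to -0.66. Medians over the 30 genes ranged from -0.17 to -0.03 in heterozygous SE, from -0.25 to -0.04 in mutants given pilocarpine, from -0.08 to 0.06 in mutant controls and from -0.17 to 0.01 for the difference between responses. The same-numbered animals share only a number, and the replicate block gave 2489 calls over all probe sets in place of 2813 in heterozygous SE and 15 in place of 28 in mutant controls. The number of arrays limits the precision, as the intervals show. The restricted fit could not be made for the difference between responses. The causes were not tested.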
